A study of Rattus norvegicus with 24 samples.

Results

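The 7 genes described here encode the platelet-derived growth factors and their receptors in the rat: the ligand genes Pdgfa, Pdgfb, Pdgfc and Pdgfd, the receptor genes Pdgfra and Pdgfrb, and Pdgfrl, which encodes a receptor-like protein. They were taken by gene name, and all 7 were found among the 21425 genes of the table. The libraries profiled messenger RNA of a testis culture, in which unsorted cells of postnatal day 5 wild-type Sprague Dawley rats were kept in 4.5 mg/mL matrigel at 5 M cells/mL (M, mega), without serum and with 50% of the medium replaced every 24 h. Of 24 libraries in 8 groups of 3, the baseline experiment held the freshly isolated testis cells and cultures of days 3, 5 and 7, all untreated. These came from 1 litter and were technical replicates, so p-values there measure technical spread and not variation between litters. The induction experiment held cultures of day 10, sampled at 0, 2, 12 and 48 h. Those of 2, 12 and 48 h received 50 mIU/mL luteinizing hormone (LH) and 20 mIU/mL follicle-stimulating hormone (FSH). Those of 0 h had received neither hormone. Each induction library combined 3 cultures of 1 litter, and each time had 1 library from each of 3 litters. Neither a 6 h time point nor untreated cultures at 2, 12 and 48 h were analysed here, and effects of the hormones, of new medium and of longer culture cannot be told apart.

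PDGF ligands are secreted dimers that bind and pair 2 receptor tyrosine kinases, PDGFRα (from Pdgfra) and PDGFRβ (from Pdgfrb). PDGF-A binds PDGFRα, PDGF-B binds both receptors, and PDGF-C and PDGF-D are secreted with a CUB domain that proteases must remove, after which PDGF-C acts mainly through PDGFRα and PDGF-D mainly through PDGFRβ. In the developing testis, Sertoli cells are a known source of PDGF-A, and the receptors are carried by interstitial and peritubular cells, among them the precursors of Leydig cells. Loss of the A ligand or of the α receptor in mice is known to impair Leydig cell development.

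Levels are in CPM, read counts divided by the depth of their library and brought to one shared depth, and a mean is followed by its SD over 3 libraries. Libraries held 17.3 to 30.4 M reads in the baseline and 15.8 to 28.3 M reads in the induction experiment. The smallest read count behind any PDGF value was 45, for Pdgfb in a fresh library. A count of 0 would have allowed up to 3 reads, or 0.0987 to 0.190 CPM, for counting error only. Differences are log2 fold changes of CPM + 1 with their standard error (SE), and a gene was called, and is said to have risen or fallen, at an adjusted p under 0.05 in limma. Each experiment was compared within itself, and levels of different genes were not compared because CPM are not scaled to gene length. Marker genes of the labelled tissue were present in every group. The summed level of 10 Sertoli markers was 2047 to 2193 CPM in the fresh libraries, 4109 to 4584 CPM at day 3 and 2874 to 3159 CPM at 0 h. That of 7 germ cell markers was 235 to 254 CPM in the fresh libraries and 14.0 to 28.9 CPM at day 3.

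Between the fresh isolate and culture, 3 of the 4 ligand genes and 1 of the 2 signalling receptors rose several-fold, and 1 ligand gene fell. At day 3, Pdgfb, Pdgfc, Pdgfd, Pdgfra and Pdgfrb rose and Pdgfa fell, which made 6 of 7 genes called, where 55.9% of all 13055 genes tested were called (29.1% rose and 26.8% fell). At day 5, Pdgfb, Pdgfc, Pdgfd and Pdgfrb rose and Pdgfa fell, 5 of 7 genes beside 59.9% of all genes (29.6% rose and 30.3% fell). At day 7 the same 5 genes were called in the same directions, beside 60% of all genes (28.5% rose and 31.4% fell). More than 0.5 of all genes were called, so with 7 genes these totals are not read as particular to the PDGF genes. The groups did not overlap for 7, 6 and 5 of the 7 genes at days 3, 5 and 7, against 67.2%, 65.3% and 71.4% of all genes. By size, the day 3 log2 fold changes of Pdgfb, Pdgfc, Pdgfd and Pdgfrb lay at the 96.6th, 95.5th, 97.6th and 97.2nd percentiles of all genes tested, Pdgfra at the 86.8th, and Pdgfa and Pdgfrl at the 22.6th and 24.5th. In bulk RNA, more cells of a type and more RNA per cell cannot be told apart.

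Pdgfa, the ligand specific to the α receptor, stood at 125, 123.1 and 124 CPM in the 3 fresh libraries. It was 89.7, 78.5 and 98.9 CPM at day 3, 69.8, 91.1 and 110.0 CPM at day 5, and 91.0, 67.7 and 82.4 CPM at day 7. All 9 culture libraries lay below all 3 fresh ones, and the culture libraries were more spread. The gene fell by 0.48 ± 0.15 on the log2 scale at day 3 (limma adjusted p = 0.0162) and by 0.63 ± 0.15 at day 7 (limma adjusted p = 0.00286). The day 3 call was lost without day 3 replicate 2 (limma adjusted p = 0.0671, and 0.00167 to 0.0671 over all alternatives). At day 5 it fell by 0.48 ± 0.15 (limma adjusted p = 0.0154), and that call was lost without day 5 replicate 1 (limma adjusted p = 0.0825, with a range of 0.00195 to 0.0825). In the same comparison with day 3, 6 of the 8 tested Sertoli markers rose and 1 fell, and all 7 germ cell markers fell. Their part in the fall of Pdgfa was not tested.

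Pdgfb, the ligand of both receptors, was low in the fresh isolate, at 1.97, 2.84 and 2.86 CPM. It reached 10.0, 7.70 and 13.1 CPM at day 3, 9.91, 9.88 and 14.0 CPM at day 5, and 7.34, 4.51 and 10.2 CPM at day 7. Every culture library lay above every fresh one. The mean at day 3 was 4.01 times the fresh mean, a rise of 1.65 ± 0.26 on the log2 scale (limma adjusted p = 0.000114). At day 7 the rise was 1.18 ± 0.26 (limma adjusted p = 0.00132). Endothelial cells and platelets are known sources of this ligand. The summed level of 6 endothelial markers was 87.4 to 105 CPM in the fresh libraries, 102 to 117 CPM at day 3 and 51.3 to 74.1 CPM at day 7. Of the 5 endothelial markers tested, none rose and 3 fell at day 3, and 1 rose and 3 fell at day 7, while the defining marker Cdh5 was present throughout. Platelet and megakaryocyte markers, 5 in all, summed to 13.2 to 15.4 CPM in the fresh libraries, 44.1 to 50.9 CPM at day 3 and 60.6 to 73.7 CPM at day 7, and of the 3 tested, 1 rose at day 3, 3 at day 5 and 2 at day 7, with 0 falling. Most of that sum was Itgb3, an integrin subunit that other cells also carry, with a mean of 13.6 CPM in the fresh isolate and 63.0 CPM at day 7. The defining marker Pf4 had at most 0.395 CPM in the fresh libraries and 1.08 CPM at day 7, and Ppbp had no reads in any library. The part of these cells in the Pdgfb level was not tested.

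The upstream sequences of Pdgfa and Pdgfb are shown because these ligand genes moved in opposite directions between the fresh isolate and culture. Each is the 250 bases before the RefSeq start on the build GRCr8, for Pdgfa on the plus strand at chr12:20759116-20759365 and for Pdgfb on the minus strand at chr7:113438344-113438593, with the GC box, GGGCGG on either strand, in capitals.
Pdgfa upstream: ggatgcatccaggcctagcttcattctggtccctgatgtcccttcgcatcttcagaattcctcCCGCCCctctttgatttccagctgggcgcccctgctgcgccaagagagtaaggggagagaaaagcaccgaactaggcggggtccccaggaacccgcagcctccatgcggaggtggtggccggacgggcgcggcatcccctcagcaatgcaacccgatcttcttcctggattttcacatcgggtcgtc
Pdgfb upstream: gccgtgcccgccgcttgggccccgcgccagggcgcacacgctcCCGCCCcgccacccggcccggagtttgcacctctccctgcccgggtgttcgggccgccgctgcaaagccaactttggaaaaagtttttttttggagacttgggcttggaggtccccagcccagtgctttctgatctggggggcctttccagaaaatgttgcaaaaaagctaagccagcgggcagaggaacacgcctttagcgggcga
Their GC content was 60.8% for Pdgfa and 63.6% for Pdgfb. Each held 1 GC box, starting at position -187 for Pdgfa and -207 for Pdgfb. RefSeq windows of 300 bases, from 250 before to 50 after the start, were available for 5 of the 7 genes. The GC box was found in 3 of these, the third being Pdgfd at -114, and in 34.9% of all 27457 windows. An AP-1 site, TGANTCA, was found in Pdgfra alone, at -35, and in 7.33% of all windows. The EGR1 site GCGNGGGCG, in 5.29% of windows, and the cAMP response element TGACGTCA, in 1.91%, were found in none of the 5. A match is a description of the letters and not evidence of binding.

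Pdgfc, a ligand with the removable CUB domain, was steady among replicates and higher at each later day. It stood at 15.7, 15.5 and 14.4 CPM in the fresh libraries, at 40.6, 45.7 and 44.9 CPM at day 3, at 57.6, 48.1 and 55.1 CPM at day 5, and at 57.0, 65.8 and 64.6 CPM at day 7. The mean rose 2.88-fold by day 3 and 4.11-fold by day 7, with log2 changes of 1.47 ± 0.11 (limma adjusted p = 1.34e-07) and 1.97 ± 0.11 (limma adjusted p = 7.17e-09). It was the only PDGF gene called within the culture period, and its day 7 libraries all lay above its day 3 libraries. That rise, of 0.50 ± 0.11 on the log2 scale (limma adjusted p = 0.0175), made 1 of 7 PDGF genes called where 3.79% of all genes were (1.36% rose). The call was lost without day 3 replicate 1 (limma adjusted p = 0.103), without day 7 replicate 2 (limma adjusted p = 0.0599) and without day 7 replicate 3 (limma adjusted p = 0.0877), within a range of 0.000118 to 0.103 over all alternatives.

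Pdgfd, the CUB-domain ligand that acts mainly on the β receptor, was 12.2, 11.4 and 10.1 CPM in the fresh libraries. It was 41.2, 49.5 and 40.4 CPM at day 3, 52.1, 37.7 and 55.8 CPM at day 5, and 43.1, 49.3 and 56.8 CPM at day 7. The culture days overlapped each other and none overlapped the fresh libraries. The rises over the fresh isolate were 1.87 ± 0.16 at day 3 (limma adjusted p = 4.45e-07), 2.00 ± 0.16 at day 5 (limma adjusted p = 2.18e-07) and 2.05 ± 0.16 at day 7 (limma adjusted p = 1.54e-07), or 3.90-fold, 4.33-fold and 4.44-fold in mean CPM.

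**Figure D1:**
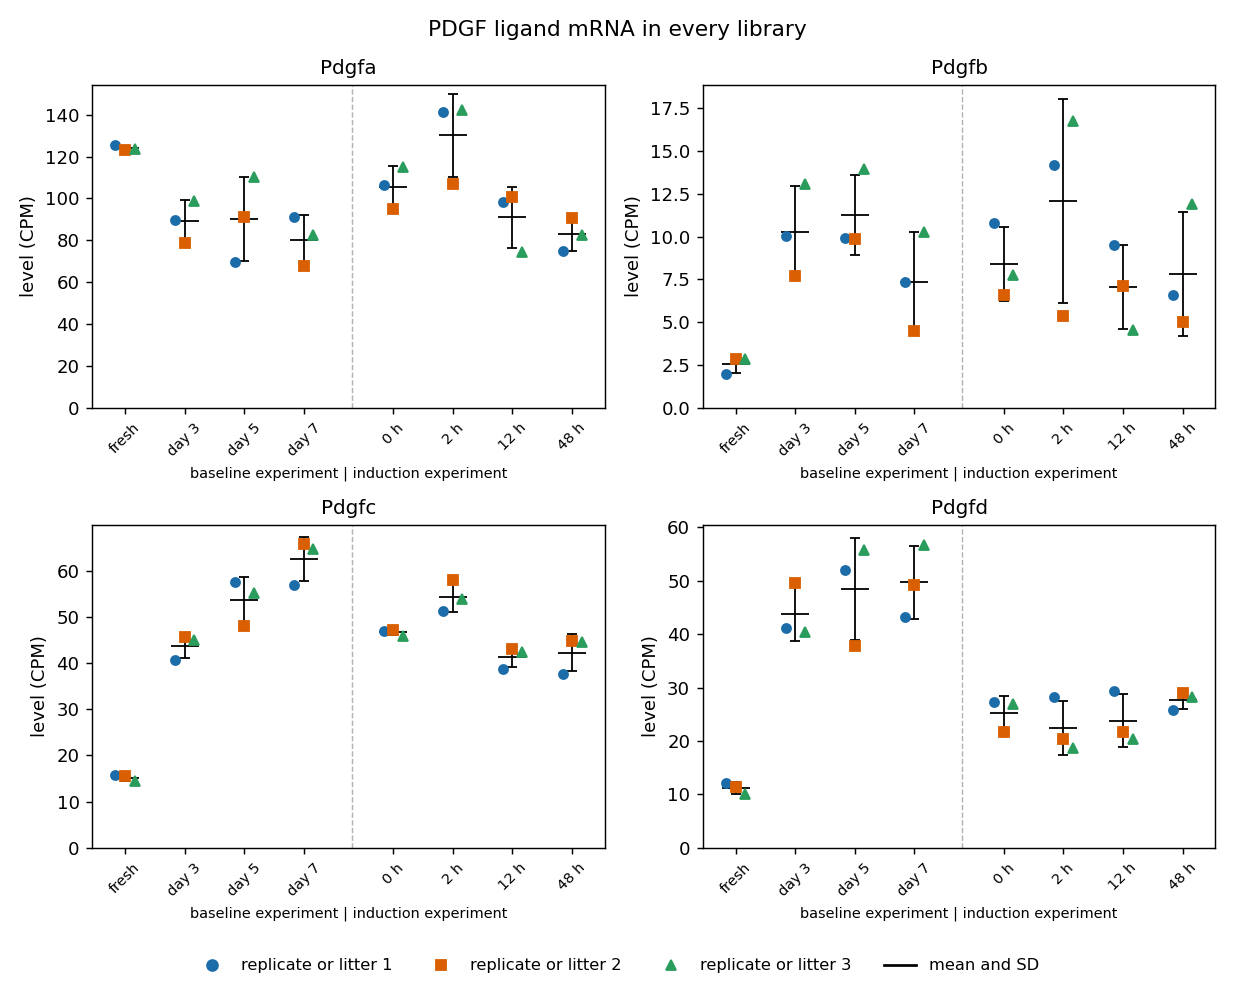
Level of each ligand gene in CPM (linear axis from 0, one panel per gene) in every library, by group, with points for replicates or litters and bars for mean and SD (n = 3). Pdgfa is highest among baseline groups in the fresh isolate, at 123.1 to 125 CPM, whereas Pdgfb, Pdgfc and Pdgfd are lowest there.

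Among the receptors, Pdgfrb, which marks pericytes and other mural cells in many tissues, had the larger change in culture. Its fresh libraries stood at 85.9, 75.4 and 78.5 CPM. It was 293, 284 and 257 CPM at day 3, 275, 282 and 276 CPM at day 5, and 320.2, 269 and 382 CPM at day 7. The lowest culture library was thus far above the highest fresh one, and the day 5 libraries differed among themselves by less than those of any other group. The rise was 3.48-fold at day 3 (log2 1.79 ± 0.11, limma adjusted p = 3.79e-08) and 4.06-fold at day 7 (log2 1.99 ± 0.11, limma adjusted p = 1.13e-08). Beside this rise stood the markers of cell types that carry the receptor. The summed level of 7 peritubular myoid markers was 1414 to 1580 CPM in the fresh libraries, 3035 to 3541 CPM at day 3 and 4095 to 4841 CPM at day 7, with 6 of 7 markers rising at each day. The summed level of 6 pericyte and vascular smooth muscle markers was 264 to 282 CPM, 477 to 508 CPM and 548 to 698 CPM in the same groups, and 2 rose and 1 fell at day 3, and 3 rose and 1 fell at day 7. Rgs5, which with Notch3 was set as a defining pericyte marker, was the 1 that fell at day 7, against the 3 that rose. It fell by 2.08 ± 0.24 on the log2 scale (limma adjusted p = 7.15e-06). Its level was low throughout, with at most 4.78 CPM in the fresh libraries and at most 0.477 CPM at day 7. The part of these cell types in the rise of Pdgfrb was not tested.

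Pdgfra, the receptor for A, B and C ligands, was 232, 200.1 and 199.8 CPM in the fresh libraries. It was 435, 397 and 311 CPM at day 3, 334, 357 and 166 CPM at day 5, and 269, 438 and 197 CPM at day 7. Day 3 lay wholly above the fresh isolate, whereas at days 5 and 7 replicate 3 lay below every fresh library. The day 3 rise was 1.81-fold (log2 0.84 ± 0.29, limma adjusted p = 0.0238). It was not called without day 3 replicate 1 (limma adjusted p = 0.0815), day 3 replicate 2 (0.0593), fresh replicate 2 (0.0654) or fresh replicate 3 (0.0670), within a range of 0.000396 to 0.0815 over all alternatives. Differences at day 5, of 0.36 ± 0.29 (limma adjusted p = 0.292), and at day 7, of 0.44 ± 0.29 (limma adjusted p = 0.204), were not called, but without day 5 replicate 3 the day 5 difference was 0.71 and was called (limma adjusted p = 0.0238). The summed level of 7 interstitial progenitor markers was 284 to 325 CPM in the fresh libraries. It was 398 to 433 CPM at day 3, 288 to 417 CPM at day 5 and 485 to 590 CPM at day 7. Of 6 markers tested, 4, 5 and 5 were called in either direction at days 3, 5 and 7, beside 55.9%, 59.9% and 60% of all genes. These counts do not separate rises from falls. The part of interstitial progenitor cells in the Pdgfra level was not tested.

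Pdgfrl was low, at 4.87, 5.05 and 6.32 CPM in the fresh libraries, 3.92, 3.28 and 3.91 CPM at day 3, 2.95, 3.43 and 4.18 CPM at day 5, and 5.79, 3.95 and 7.97 CPM at day 7. Days 3 and 5 lay below the fresh libraries without overlap, and day 7 overlapped them. None of its differences from the fresh isolate was called, at -0.44 ± 0.21 at day 3 (limma adjusted p = 0.0875), -0.51 ± 0.21 at day 5 (limma adjusted p = 0.0507) and 0.07 ± 0.21 at day 7 (limma adjusted p = 0.782). The day 5 difference was called without day 5 replicate 3 (limma adjusted p = 0.0341) and in a fit of the 2 groups alone (limma adjusted p = 0.0425), and the day 3 difference in such a fit (limma adjusted p = 0.0313). In RefSeq the gene overlaps Mtus1, whose mean rose from 82.5 CPM in the fresh isolate to 177 CPM at day 5, and the libraries did not keep strand, so the few reads of Pdgfrl are uncertain. Of the others, Pdgfa, Pdgfc and Pdgfd overlap other genes; that of Pdgfd, Ddi1, had a mean of at most 0.207 CPM, and Pdgfb, Pdgfra and Pdgfrb overlap none.

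Within the culture period, limma called no PDGF gene other than Pdgfc. Between days 3 and 5, limma, edgeR and DESeq2 each called 0 of 7 genes, beside 0.115%, 0.123% and 1% of all genes. An unadjusted p under 0.05 was found for 1 of 7 (11.9% of all genes). Between days 5 and 7 these tools again called 0, beside 0.0766%, 0.0766% and 1.85% of all genes in the same order. In that comparison 2 of 7 had an unadjusted p under 0.05 (13.9% of all genes). These were Pdgfb, at -0.59 ± 0.26 (limma adjusted p = 0.331), and Pdgfrl, at 0.58 ± 0.21 (limma adjusted p = 0.266). Between days 3 and 7, 2 of 7 had an unadjusted p under 0.05 (14.8% of all genes), Pdgfc and Pdgfrl. Pdgfrl was higher at day 7 without overlap, by 0.51 ± 0.21, and was not called (limma adjusted p = 0.254).

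**Figure D2:**
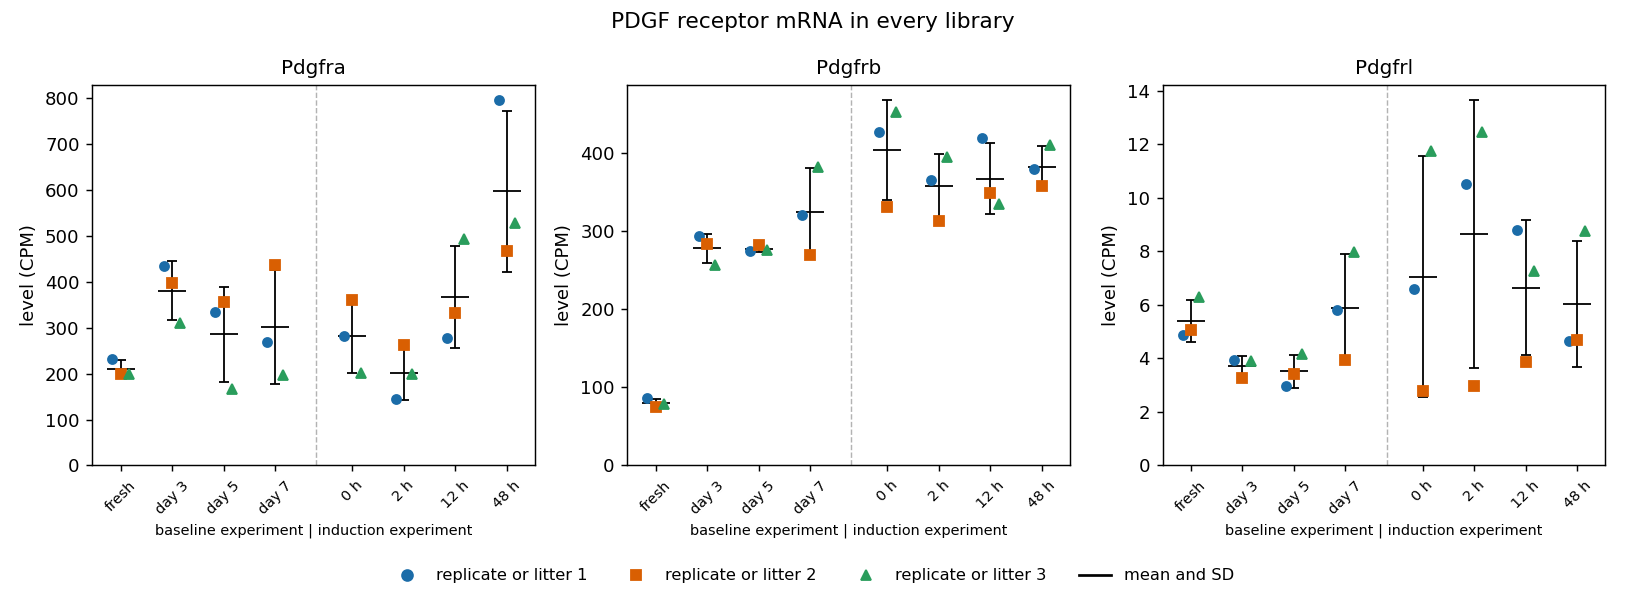
Level of each receptor gene in CPM (linear axis from 0, one panel per gene) in every library, by group, with points for replicates or litters and bars for mean and SD (n = 3). Pdgfrb is at 75.4 to 85.9 CPM in the fresh libraries and at 257 to 382 CPM in the 9 baseline cultures, and Pdgfra reaches its highest level, 796 CPM, in a 48 h library.

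After LH and FSH, Pdgfra was the PDGF gene that moved most. It was 282, 361 and 201 CPM at 0 h in litters 1, 2 and 3, then 144, 262 and 199.9 CPM at 2 h, 277, 332 and 492 CPM at 12 h, and 796, 467 and 527 CPM at 48 h. All 48 h libraries lay above all libraries of 0 and 2 h, and the 12 h libraries overlapped those of 48 h. From 2 to 48 h the gene rose by 1.56 ± 0.29 on the log2 scale (limma adjusted p = 0.00982), 2.95-fold in mean CPM and 5.51-fold, 1.78-fold and 2.64-fold in litters 1, 2 and 3. Without litter 1 at 48 h the rise was 1.33 and was not called (limma adjusted p = 0.0543, within a range of 2.98e-06 to 0.0543 over all alternatives).

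Against 0 h, Pdgfra at 48 h was higher in all 3 litters, by 2.82-fold, 1.29-fold and 2.62-fold. The difference of 1.08 ± 0.29 on the log2 scale was not called by limma (adjusted p = 0.149) and was called by DESeq2 on the recovered reads (DESeq2 adjusted p = 0.00591), with a range of 0.00591 to 0.492 over all alternatives. At 2 h the gene was lower than at 0 h in the 3 litters, by 0.96, 0.46 and 0.01 on the log2 scale per litter, a difference of -0.48 ± 0.29 that was not called (limma adjusted p = 0.618). The summed level of Leydig markers was higher at 48 h than at 0 h in all 3 litters, and that of macrophage markers in litters 1 and 3. For 48 h against 0 h, limma and edgeR called 0 of 5 Leydig and 0 of 7 macrophage markers tested. DESeq2 and the fit with litter as a block called 2 and 1, and 2 and 1 had an unadjusted p under 0.05. The sum of 7 Leydig markers was 59.0 to 95.3 CPM at 0 h, 93.7 to 234 CPM at 2 h, 61.4 to 134 CPM at 12 h and 108 to 172 CPM at 48 h. The mean of this sum was 153 ± 72.4 CPM (SD) at 2 h and 141 ± 31.8 CPM at 48 h. The mean of Pdgfra was lowest at 2 h. The summed level of 8 macrophage markers was 22.1 to 64.8 CPM at 0 h and 131, 22.998 and 165 CPM in litters 1, 2 and 3 at 48 h. That of 7 interstitial progenitor markers was 713 to 909 CPM at 0 h and 704 to 997 CPM at 48 h. Their part in the Pdgfra level was not tested.

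Pdgfrb did not follow Pdgfra. It was 427, 331 and 452 CPM at 0 h, 365, 313 and 395 CPM at 2 h, 419.5, 348 and 334 CPM at 12 h, and 379.8, 357 and 410.0 CPM at 48 h, so that all 4 times overlapped. The difference between 48 and 0 h was -0.07 ± 0.13 on the log2 scale (limma adjusted p = 0.857). Pdgfrl was 6.61, 2.79 and 11.8 CPM at 0 h and 4.67, 4.69 and 8.76 CPM at 48 h, with litter 2 lowest at 0, 2 and 12 h. No difference of Pdgfrl between times was called.

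Pdgfa was 106, 94.9 and 115 CPM at 0 h, 141, 107 and 142 CPM at 2 h, 98.1, 100.5 and 74.2 CPM at 12 h, and 75.0, 90.9 and 82.5 CPM at 48 h. The 2 h libraries lay above those of 12 and 48 h without overlap, and each litter was higher at 2 h than at 0 h, by 0.40, 0.17 and 0.30 on the log2 scale. From 2 to 48 h the gene fell by 0.64 ± 0.14 (limma adjusted p = 0.0195). That call was lost without litter 1 or litter 3 at 2 h (limma adjusted p = 0.0768 and 0.0527) and without litter 1 or litter 3 at 48 h (limma adjusted p = 0.0945 and 0.0578), within a range of 0.00143 to 0.0945 over all alternatives. The 12 h against 2 h difference, -0.51 ± 0.14, was not called by limma (adjusted p = 0.172) but was by DESeq2 (adjusted p = 0.0459).

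Pdgfc varied in a narrow band, with 46.9, 47.1 and 45.9 CPM at 0 h, 51.3, 57.9 and 53.9 CPM at 2 h, 38.7, 42.9 and 42.3 CPM at 12 h, and 37.6, 44.7 and 44.5 CPM at 48 h. The groups of 0 and 2 h overlapped neither each other nor the later times. From 2 to 48 h it fell by 0.36 ± 0.08 on the log2 scale (limma adjusted p = 0.0237). The call was lost without litter 1 or litter 2 at 2 h (limma adjusted p = 0.050004 and 0.0710), without litter 1 at 48 h (0.111) and in a fit of the 2 groups alone (0.0959), within a range of 0.00462 to 0.111 over all alternatives. From 2 to 12 h it was lower by a similar amount, -0.39 ± 0.08, which limma did not call (adjusted p = 0.102) and which was called with litter as a block (limma adjusted p = 0.0256) and by DESeq2 (adjusted p = 0.00959).

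The other ligands showed no call at any time. Pdgfb was 10.8, 6.58 and 7.77 CPM at 0 h, 14.2, 5.36 and 16.7 CPM at 2 h, 9.48, 7.09 and 4.55 CPM at 12 h, and 6.60, 4.99 and 11.9 CPM at 48 h. All 4 times overlapped, and at 2 h litters 1 and 3 were higher than at 0 h while litter 2 was lower. Pdgfd was 27.3, 21.8 and 26.9 CPM at 0 h, 28.2, 20.4 and 18.6 CPM at 2 h, 29.5, 21.7 and 20.4 CPM at 12 h, and 25.8, 29.0 and 28.3 CPM at 48 h, and its largest difference, between 48 and 2 h, was 0.31 ± 0.17 (limma adjusted p = 0.262).

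In counts, 1 of 7 PDGF genes rose and 2 fell from 2 to 48 h, where 7.96% of all 12450 genes tested were called (4.14% rose and 3.82% fell), and edgeR, DESeq2 and the fit with litter as a block each also called 3, beside 10.8%, 16.3% and 22.1% of all genes. From 2 to 12 h limma called 0 of 7 (and 0% of all genes) with 3 at an unadjusted p under 0.05 (13.3% of all genes). For the same times edgeR called 0 (0.0884% of all genes), DESeq2 3 (3.19%) and the blocked fit 1 (2.96%). In that comparison the groups of 3 of the 7 genes did not overlap, against 16.3% of all genes. For 48 h against 0 h limma and edgeR called 0 of 7 (0.394% and 0.305% of all genes) and DESeq2 1 (3.37%), with 2 at an unadjusted p under 0.05 (13% of all genes). With litter as a block, 0 of 7 were called (4.35% of all genes). The groups of 3 of 7 genes, Pdgfa, Pdgfc and Pdgfra, did not overlap between 48 and 0 h, and the same was true between 48 and 2 h, against 20.4% and 26.5% of all genes. For 2 h against 0 h, 12 h against 0 h and 48 h against 12 h, limma, edgeR and DESeq2 each called 0 of 7. Of all genes, limma called 0% in each, edgeR 0.0482%, 0% and 0%, and DESeq2 3.04%, 0.0723% and 0.683%. The fit with litter as a block also called 0 of 7, beside 0.618%, 0% and 0.715% of all genes. At an unadjusted p under 0.05 were 1, 0 and 1 PDGF genes, against 10.7%, 2.5% and 6.8% of all genes.

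**Figure D3:**
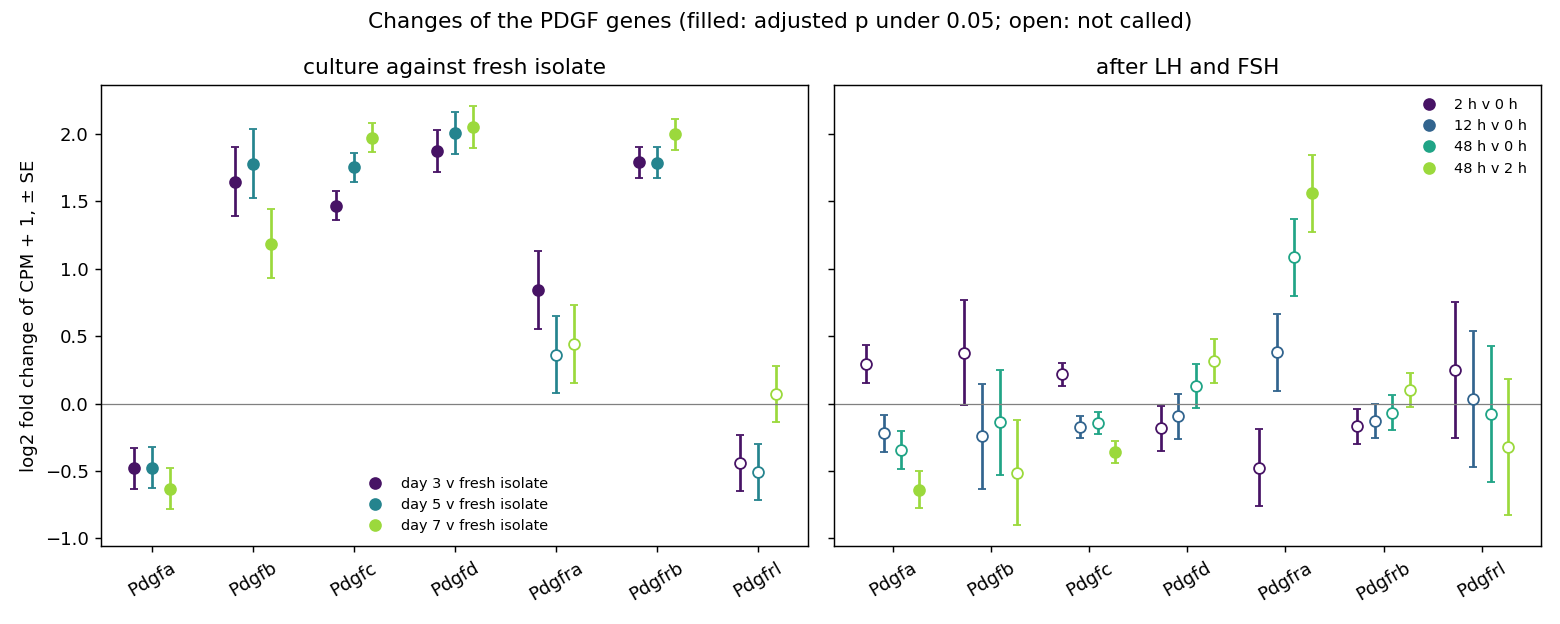
Log2 fold changes of CPM + 1 (vertical axis, with bars of ± SE) of the 7 genes for cultures against the fresh isolate (left) and for times after LH and FSH (right), with filled points where the limma adjusted p was under 0.05. Pdgfb, Pdgfc, Pdgfd and Pdgfrb are filled and above 0 at all 3 culture days, and at the right Pdgfra at 48 h against 2 h reaches 1.56.

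The balance of the receptors was followed as the log2 ratio of Pdgfra to Pdgfrb CPM within each library, in which gene length cancels when groups are compared. It was 1.43, 1.41 and 1.35 in the fresh libraries, 0.57, 0.48 and 0.27 at day 3, 0.28, 0.34 and -0.73 at day 5, and -0.25, 0.70 and -0.96 at day 7. No baseline culture library reached the fresh level. The group mean was 1.40 ± 0.04 in the fresh isolate (SD, n = 3), 0.44 ± 0.15 at day 3 and -0.17 ± 0.83 at day 7. Differences from the fresh isolate were -0.96 at day 3 and -1.57 at day 7, each with an exact two-sided permutation p of 0.1, the smallest that 3 against 3 libraries allow.

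In the induction experiment the ratio moved the other way. It was -0.60, 0.12 and -1.17 at 0 h in litters 1, 2 and 3, -1.34, -0.26 and -0.98 at 2 h, -0.60, -0.07 and 0.56 at 12 h, and 1.07, 0.39 and 0.36 at 48 h. All 48 h libraries lay above all 0 h libraries. The mean was -0.55 ± 0.65 at 0 h and 0.61 ± 0.40 at 48 h (SD, n = 3), a difference of 1.15 with an exact two-sided permutation p of 0.1. Within litters 1, 2 and 3 the ratio was higher at 48 h by 1.67, 0.26 and 1.53, with an exact two-sided paired permutation p of 0.25, the smallest that 3 litters allow.

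**Figure D4:**
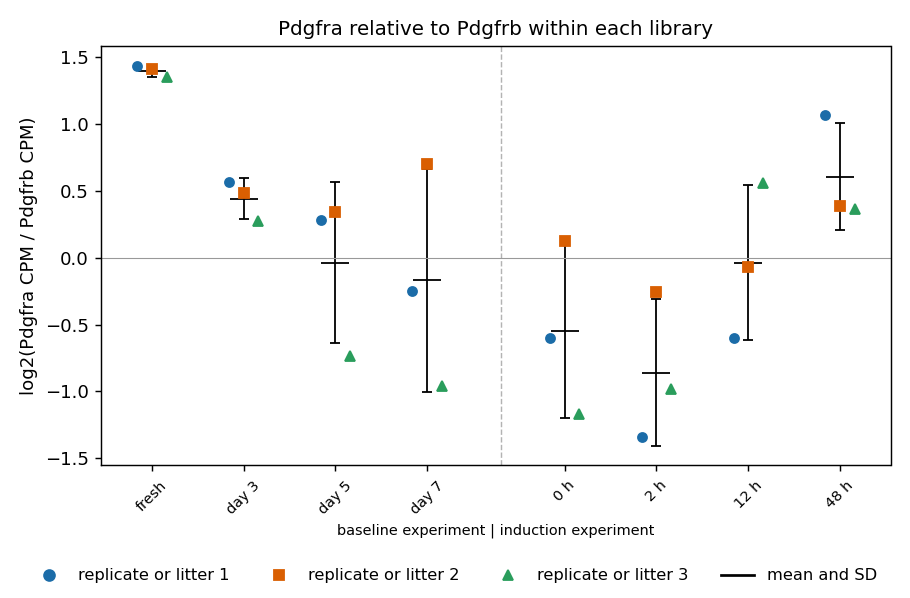
Log2 ratio of Pdgfra to Pdgfrb CPM in each library (vertical axis), by group, with points for replicates or litters and bars for mean and SD (n = 3). The fresh libraries lie at 1.35 to 1.43, above all baseline cultures, and the 48 h libraries at 0.36 to 1.07, above those of 0 h.

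Within each culture group, the order of the libraries in Pdgfra was set beside their order in the other PDGF genes. In 5 of the 7 culture groups (day 7 and 0, 2, 12 and 48 h) the library highest in Pdgfra was the lowest of its group in Pdgfa, and in 5 of 7 (days 5 and 7 and 0, 2 and 12 h) it was the lowest in Pdgfb. In 0 of 7 groups was 1 library highest in Pdgfra and in either ligand. Pdgfd was likewise lowest in that library in 4 of 7 groups and highest in 0, and Pdgfrb and Pdgfrl were lowest in 4 and highest in 2 and 1. For Pdgfc the library highest in Pdgfra was lowest in 3 groups and highest in 3. These orders are over 3 libraries of each group, and the induction groups share their litters. The share of all genes in such an order was not computed, so the orders are given only as a description. The spread of Pdgfra itself was a coefficient of variation of 8.73% in the fresh libraries, 16.7% at day 3, 36.4% at day 5, 41.0% at day 7 and 28.4 to 30.5% in the induction groups, and that of Pdgfc was at most 9.64% in any group.

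Of 56 further genes of the pathway, in 7 lists by role, 54 were tested in the baseline experiment. At day 3, 23 rose and 13 fell, at day 5, 23 rose and 10 fell, and at day 7, 26 rose and 14 fell. The share called was thus 66.7%, 61.1% and 74.1%, beside the 55.9%, 59.9% and 60% of all genes above. Median log2 changes of the lists are given beside medians over all genes tested of 0.02 at day 3 and -0.05 at day 7. Of 7 proteases that can process the ligands, 3 rose and 1 fell at day 3 (median 0.12) and 4 rose and 1 fell at day 7 (median 0.40). Pcsk5, a proprotein convertase, rose by 1.67 ± 0.21 at day 7 (limma adjusted p = 1.45e-05). Plat, the tissue plasminogen activator, which can release active PDGF-C, rose by 1.25 ± 0.20 (limma adjusted p = 0.000118). Plau, the urokinase that can process PDGF-D, fell by 0.82 ± 0.15 at day 7 (limma adjusted p = 0.000475). From day 3 to day 7, limma called 2 of the 54 pathway genes, 3.70% beside 3.79% of all genes. These were Pcsk5 and Pcsk6, another convertase, which rose by 1.14 ± 0.21 and 0.87 ± 0.16 (limma adjusted p = 0.00910 and 0.00799). For the same days edgeR called 4, DESeq2 7 and a fit with a replicate block 3. These made 7.41%, 13% and 5.56%, beside 3.55%, 6.14% and 3.72% of all genes.

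Of 5 co-receptors and ligand-binding partners, 3 rose and 1 fell at day 3 (median 1.11), and 3 rose and 0 fell at day 7 (median 1.43). Bgn, the proteoglycan biglycan, rose by 3.23 ± 0.15 at day 7 (limma adjusted p = 2.23e-09). Sparc, a matrix protein that binds PDGF-B, rose by 1.64 ± 0.13 (limma adjusted p = 2.16e-07). Lrp1, an endocytic receptor that associates with PDGFRβ, fell by 0.75 ± 0.22 at day 3 (limma adjusted p = 0.0106). Of 4 tested VEGF relatives of the ligands, members of the same growth factor superfamily, 3 rose and 0 fell at both days (medians 1.16 and 1.43). Vegfd was the most changed of them at day 3, by 3.72 ± 0.27 (limma adjusted p = 1.51e-07), and Vegfc rose by 1.79 ± 0.16 (limma adjusted p = 7.78e-07).

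Downstream of the receptors, 7 of 16 receptor-proximal signalling genes rose and 2 fell at day 3 (median 0.25), and 9 rose and 3 fell at day 7 (median 0.35). Stat3, a transcription factor that receptor kinases can activate, rose by 1.68 ± 0.11 at day 7 (limma adjusted p = 5.57e-08). Ptpn11, the phosphatase SHP2 that docks on both receptors, rose by 1.07 ± 0.10 (limma adjusted p = 8.73e-07). Src, a kinase that binds the activated receptors, fell by 0.63 ± 0.12 (limma adjusted p = 0.000372), and Pik3cb, a catalytic subunit of PI3-kinase, fell by 0.50 ± 0.19 (limma adjusted p = 0.0370).

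Of 8 negative regulators of the receptors, 3 rose and 3 fell at both days (medians 0.25 and 0.21). Ptprj, a phosphatase that acts on PDGFRβ, rose by 1.55 ± 0.13 at day 7 and Lrig1, a membrane inhibitor of receptor kinases, by 1.24 ± 0.10 (limma adjusted p = 3.32e-07 and 2.55e-07). Acp1 and Ptpn2, both tyrosine phosphatases, fell by 1.14 ± 0.12 and 0.85 ± 0.13 (limma adjusted p = 3.06e-06 and 6.87e-05). Of 7 related receptor kinases and their ligands, 4 rose and 0 fell at day 3 (median 1.72), and 4 rose and 1 fell at day 7 (median 1.51). Kdr and Flt4, both VEGF receptors, rose by 2.37 ± 0.18 and 2.16 ± 0.19 at day 7 (limma adjusted p = 1.60e-07 and 6.44e-07), and Csf1r, the macrophage growth factor receptor, fell by 0.97 ± 0.27 (limma adjusted p = 0.00649).

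A short list held genes known to respond to PDGF in fibroblasts. Of 7 tested, 0 rose and 6 fell at both days (medians -1.47 and -1.55), and Plaur, the urokinase receptor, was not called. Of all genes, 26.8% fell at day 3 and 31.4% at day 7. The immediate early gene Fos had mean levels of 1330.4 CPM in the fresh isolate and 8.37 CPM at day 7, a fall of 7.17 ± 0.21 on the log2 scale (limma adjusted p = 5.50e-11). Egr1, another such factor, had 2473 and 153 CPM, a fall of 4.01 ± 0.24 (limma adjusted p = 1.48e-08). Many other growth factors are known to induce these genes too, and the part of PDGF signalling in their fall was not tested.

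In the induction experiment, limma and edgeR called 0 of 53 pathway genes tested at 2, 12 or 48 h against 0 h, with 9, 6 and 13 at an unadjusted p under 0.05 (10.7%, 2.5% and 13% of all genes). DESeq2 called 2, 0 and 2 (3.04%, 0.0723% and 3.37% of all genes), and the fit with litter as a block 0, 0 and 5 (0.618%, 0% and 4.35%). From 2 to 48 h, 4 rose and 4 fell in limma, 15.1% beside the 7.96% of all genes, and 19 were called with litter as a block, 35.8% beside 22.1% of all genes. Among these, named after their values were seen, Lrp1 rose by 0.92 ± 0.25 (limma adjusted p = 0.0460) and Ptprj by 0.48 ± 0.08 (limma adjusted p = 0.00824), and Ptpn1, a phosphatase that acts on PDGF receptors, fell by 0.51 ± 0.11 (limma adjusted p = 0.0176).

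**Figure D5:**
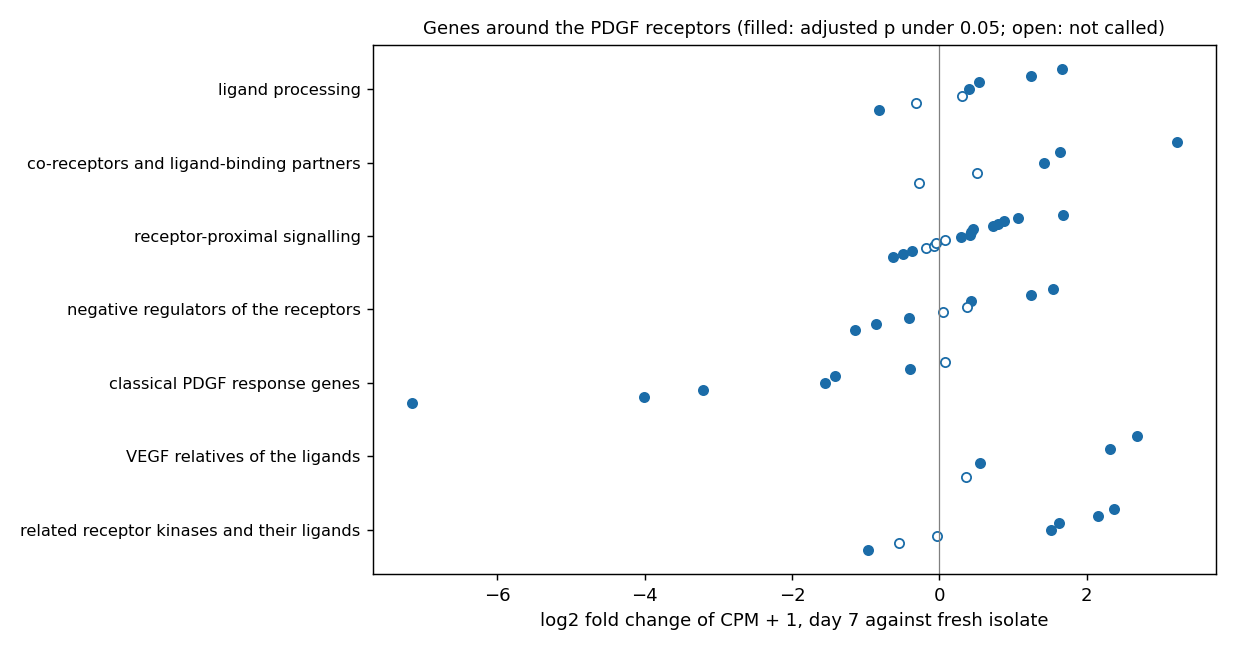
Log2 fold changes of CPM + 1 (horizontal axis) of the tested genes of the 7 pathway lists at day 7 against the fresh isolate, one point per gene, with filled points where the limma adjusted p was under 0.05. The list of genes that respond to PDGF in fibroblasts reaches farthest left, with Fos at -7.17 and Egr1 at -4.01.

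The genes closest to each PDGF gene were taken as those with the smallest root mean square (RMS) difference in log2(CPM + 1) over the 24 libraries, after each gene was centred within each experiment, among 10003 genes whose mean reached 5 CPM in both experiments. Pdgfrl was below that mean in the baseline libraries. Pdgfa was closest to Fdps, an enzyme of isoprenoid and cholesterol synthesis, with an RMS difference of 0.14, and to Pdcl3 (0.15). For Pdgfb, Rab32, a small GTPase, and AABR07034767.1 were closest, at 0.29 and 0.32. Pdgfc was closest to Nexn, which encodes an actin-binding protein of muscle, at 0.13, and to AABR07030544.1 (0.16).

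RGD1306556 was the closest gene both to Pdgfd, at 0.15, and to Pdgfrb, at 0.12, followed by Sqor, a mitochondrial sulfide oxidase, for Pdgfd (0.18) and Usp13, a deubiquitinase, for Pdgfrb (0.14). Pdgfrb itself ranked 3 for Pdgfd, at 0.19. Pdgfra was closest to Dnah11, a dynein heavy chain, at 0.27, and to Boc, a co-receptor of hedgehog ligands, at 0.28. The difference between the fresh isolate and culture enters each likeness, and libraries of a litter are shared between genes. Fdps and Dnah11, closest to Pdgfa and Pdgfra, were not called between the fresh isolate and any culture day. Boc and Dnah11 were chosen for likeness over these same libraries, so changes shared with Pdgfra are not separate evidence. From 2 to 48 h Boc rose by 0.98 ± 0.17 (limma adjusted p = 0.00788). Dnah11 differed by 1.06 ± 0.33 and was not called (limma adjusted p = 0.0704).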

How the data were processed

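Poly-A RNA was sequenced as libraries without strand. The aligner was STAR and the build mRatBN7.2, per the submitters' processing notes, and the counting tool and annotation are not given in the sources used here. CPM were deposited by the authors for 21425 genes, and 100% of values were whole multiples of 1 read to within 0.01 read, so reads were recovered. Each experiment was fitted with limma 3.58.1 (R 4.3.3) on log2(CPM + 1), group as the only term, all 12 libraries and genes with at least 1 CPM in at least 3 libraries. The two-sided p-values of each of 12 comparisons were adjusted over all genes (Benjamini-Hochberg) and called at under 0.05. edgeR 4.0.16 and DESeq2 1.42.0 ran on recovered reads as alternatives.

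The members and lists were chosen with earlier results of these data known. All members are named. For each list, counts and up to 2 called genes per direction with the largest changes are named, and for each member the 2 most alike genes. Of 128 list symbols, 5 had no row. Litters, given by the labels, pair the induction libraries (median correlation of same-litter deviations 0.482, -0.0119 to 0.747). Leaving out each library, other filters, pseudocounts and scalings were also tried. Promoters are RefSeq's. The procedure was tested on simulated data.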

Additional observations from a re-analysis of the deposited data

How the results depend on the processing

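No called change of a PDGF gene reversed sign under any alternative, whereas some differences that were not called did. For PDGF genes called, DESeq2 gave 3 for 12 h against 2 h and 1 for 48 h against 0 h. Leaving out 1 library gave 0 to 3 for 48 h against 2 h and 0 to 1 for day 7 against day 3. The number of all genes called moved more. With DESeq2 it was 378 for 2 h, 9 for 12 h and 419 for 48 h against 0 h, 397 for 12 h and 2032 for 48 h against 2 h, 85 for 48 h against 12 h, 131 for day 5 and 802 for day 7 against day 3, and 242 for day 7 against day 5. With edgeR, and with CPM rescaled by TMM, it was 6 for 2 h against 0 h and 11 for 12 h against 2 h. Without a filter it was 14 for 48 h against 0 h and 0 for day 7 against day 5. With only the groups compared it was 2 for 48 h against 0 h, 283 for 48 h against 2 h, 4 for day 5 and 286 for day 7 against day 3, and 1 for day 7 against day 5. Leaving out 1 library gave 0 to 9 for 12 h against 2 h, 7 to 49 for 48 h against 0 h, 215 to 1018 for 48 h against 2 h, 1 to 59 for day 5 and 181 to 458 for day 7 against day 3, and 0 to 48 for day 7 against day 5. The cause of these shifts was not tested.

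With litter as a replicate block, 1 PDGF gene was called for 12 h against 2 h, and the number of all genes called was 77 for 2 h and 541 for 48 h against 0 h, 368 for 12 h and 2756 for 48 h against 2 h, and 89 for 48 h against 12 h. In the baseline experiment the numbers do not pair the libraries (median correlation -0.000715). A replicate block there gave 0 of all genes for day 7 against day 5 and called Pdgfrl at day 5 against the fresh isolate (limma adjusted p = 0.0306). The block changed no other call of a PDGF gene. Pairing the receptor ratio by litter, chosen after seeing the data, left its 48 h against 0 h difference at 1.15. All 7 genes passed the filter in both experiments, and counting error was largest for Pdgfb and Pdgfrl, with as few as 45 and 51 reads in a library.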
